A study of Rattus norvegicus with 18 samples.

Results

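Reg3b encodes a small secreted lectin, and it is 1 gene of the 25678 in the count table of this rat dorsal root ganglion study. It was found by its symbol. The gene was chosen by its measured read counts, for a level that spread widely over the 18 libraries without following Atf3, so its levels and the differences between them are given as a description, with no test. Dorsal root ganglia hold the cell bodies of sensory neurons with their satellite glia, Schwann cells, vessels and resident immune cells. The 6 groups of 3 libraries were NPP_herb (disease state NPP, treatment herb), NPP_solvent (NPP, solvent), Sham_herb (Sham, herb), Sham_solvent (Sham, solvent), Ctrl_solvent (Ctrl, solvent) and Ctrl (disease state and treatment both Ctrl). The design text speaks of rats with neuropathic pain and of Shentong Zhuyu decoction, a herbal mixture with 12 components, whose mechanism it set out to find. Left unstated by the labels and design text are strain, age, sex, how the model was made, dose, time of sampling, and whether each library is a different rat.

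Reg3b belongs to the regenerating (Reg) family of C-type lectin-like secreted proteins. It is best known from the pancreas, where it is made during acute pancreatitis, and from the gut lining, where Reg3 lectins act against bacteria. In rats it is also known from nerve injury, where regenerating motor and sensory neurons make it and it promotes the division of Schwann cells. Its gene responds to cytokines of the interleukin-6 family, which signal through the shared receptor subunit gp130 and the transcription factor Stat3. In the RefSeq gene order of the rat, Reg3b is followed on chromosome 4 by the pseudogene Reg3b-ps1 and the relatives Reg3a, Reg1a and Reg3g. The count table places Reg3b, Reg3a, Reg1a and Reg3g on chromosome 4 of mRatBN7.2 and gives no start or end.

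The 250 bases before the start of Reg3b, Reg3a and Reg3g are shown because 2 of these neighbours, Reg3b and Reg3a, were high in the same libraries. They are from RefSeq on the build GRCr8, which is not the build of the counts: Reg3b at chr4:112419526-112419775 and Reg3a at chr4:112430174-112430423, both on the plus strand, and Reg3g at chr4:112484739-112484988 on the minus strand. For Reg3a, which has 2 starts in the table, the downstream one was used. Capitals mark the STAT motif TTCNNNGAA and the TATA motif TATAAAA, searched on both strands, which do not overlap here.
Reg3b: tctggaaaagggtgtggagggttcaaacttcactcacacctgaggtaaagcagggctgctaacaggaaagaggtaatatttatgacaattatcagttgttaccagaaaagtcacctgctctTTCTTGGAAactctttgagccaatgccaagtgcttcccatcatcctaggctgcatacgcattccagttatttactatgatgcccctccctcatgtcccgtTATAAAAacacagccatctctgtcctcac
Reg3a: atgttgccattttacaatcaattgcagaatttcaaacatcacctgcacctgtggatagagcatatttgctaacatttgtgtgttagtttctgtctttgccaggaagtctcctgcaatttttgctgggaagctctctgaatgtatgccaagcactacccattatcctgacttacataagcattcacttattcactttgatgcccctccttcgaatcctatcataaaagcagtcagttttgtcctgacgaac
Reg3g: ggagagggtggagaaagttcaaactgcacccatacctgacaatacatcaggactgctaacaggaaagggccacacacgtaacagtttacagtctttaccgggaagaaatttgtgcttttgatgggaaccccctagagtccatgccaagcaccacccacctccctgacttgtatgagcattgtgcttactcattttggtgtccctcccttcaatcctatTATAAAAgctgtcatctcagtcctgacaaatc
The STAT motif began 129 bases before the start of Reg3b and was not in the windows of Reg3a and Reg3g, while 7.67% of 33469 rat promoter windows of this length held it. The TATA motif began 29 bases before Reg3b and 32 before Reg3g, against 5.38% of all windows. The window of Reg1a, which is not printed, held both motifs as well, the STAT motif 242 and the TATA motif 29 bases before the start. The AP-1 motif TGANTCA was in none of the 3 windows and in 6.34% of all. Aligned end to end, the Reg3b window was 63.1% identical to that of Reg3a and 65.4% to that of Reg3g. A match of letters is a description and no binding site.

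Libraries held between 18170925 reads (Ctrl_solvent replicate 1) and 50289652 reads (Sham_solvent replicate 2) counted in genes. Levels are CPM, the reads of a gene per 1e6 reads of its library, after the trimmed-mean (TMM) scaling of edgeR. Ctrl replicates 2 and 3 stood apart from the other libraries before any result on Reg3b: the Y-linked gene Eif2s3y had 1 and 0 reads there and 2180 to 6568 reads in the other 16 libraries. Kdm5d and Uty, which the table also places on chromosome Y, had 0 reads in these libraries as well. Sensory neuron markers were high in every library: the peripherin gene Prph, an intermediate filament of sensory neurons, ran from 1728 to 3121 CPM, and the nociceptor sodium channel gene Scn10a from 205 to 469 CPM. Of the measured pancreas genes, Cela2a, Cpb1, Ins1 and Gcg did not pass the filter on low counts, with at most 0.279 CPM (Cpb1). Pnlip (4.16 to 16.01 CPM), Ins2 (3.14 to 6.99 CPM) and Cela1 (1.17 to 5.85 CPM) had reads in all 18 libraries, and the median r of these 3 with Reg3b was -0.05. On the length-scaled FPKM deposited by the authors, Ins2 was at only 0.06 to 0.14, against 2.04 to 7.17 for Pnlip. Whether the Ins2 reads come from insulin transcripts was not tested.

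Reg3b was high in 3 libraries of 2 groups and low in most others. It was at 2.58, 15.8 and 0.913 CPM in replicates 1, 2 and 3 of NPP_herb, at 7.78, 3.78 and 36.6 CPM in NPP_solvent, and at 1.82, 0.493 and 2.52 CPM in Sham_herb. It was at 0.61, 0.471 and 1.55 CPM in Sham_solvent, at 4.06, 0.758 and 13.8 CPM in Ctrl_solvent, and at 0.516, 67.1 and 97.1 CPM in Ctrl. The highest library was thus Ctrl replicate 3 and the next Ctrl replicate 2, and the lowest were Sham_solvent replicate 2, Sham_herb replicate 2 and Ctrl replicate 1. The highest library exceeded the lowest 206-fold, from 2973 reads in Ctrl replicate 3 and 24 reads in Sham_solvent replicate 2. The 3 highest libraries (Ctrl replicates 3 and 2 and NPP_solvent replicate 3) held 77.7% of the Reg3b level summed over all 18. Of 14368 genes with a mean of at least 1 CPM, Reg3b had the 21st largest standard deviation of log2 CPM, 2.42 against a median of 0.22 for these genes.

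**Figure D1:**
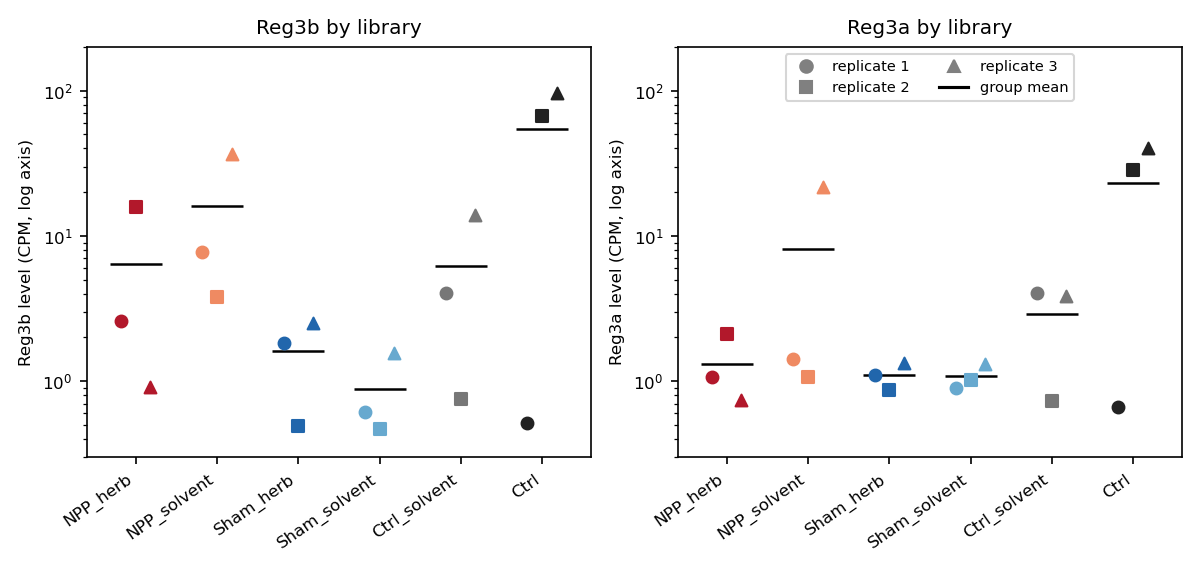
Levels of Reg3b (left) and Reg3a (right) in CPM on a log axis in each of the 18 libraries, by group, with the marker shape for the replicate number and a line at the group mean. For both genes Ctrl replicates 2 and 3 and NPP_solvent replicate 3 lie highest, and Ctrl replicate 1 lies with the low libraries.

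Group means gave the order Ctrl, NPP_solvent, NPP_herb, Ctrl_solvent, Sham_herb, Sham_solvent. They were 6.42 ± 8.14 CPM in NPP_herb, 16.1 ± 17.9 CPM in NPP_solvent, 1.61 ± 1.03 CPM in Sham_herb, 0.878 ± 0.589 CPM in Sham_solvent, 6.21 ± 6.79 CPM in Ctrl_solvent and 54.9 ± 49.4 CPM in Ctrl (SD, n = 3 each). No 2 neighbours in this order were separated by more than their spread. The SD was larger than the mean in NPP_herb, NPP_solvent and Ctrl_solvent. Differences between groups held 39.5% of the variance of log2 CPM, and the rest lay within groups. With 6 groups of n = 3, unrelated labels would also hold a sizeable part of the variance. That part was not estimated, so the 39.5% is not read as an effect of group.

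What the decoction did in the pain model is addressed by NPP_herb against NPP_solvent. Reg3b averaged 6.42 CPM in NPP_herb against 16.1 CPM in NPP_solvent, a log2 fold change of -1.37 ± 1.45 (SE), and the groups overlapped. Without NPP_solvent replicate 3 the value was 0.11 and without NPP_herb replicate 2 it was -3.29, so 1 library decided its sign. In NPP_herb against Sham_herb the log2 fold change was 1.93 ± 1.59, and 0.02 without NPP_herb replicate 2. In Sham_herb against Sham_solvent it was 0.94 ± 1.77, with overlapping groups. The herb effect in NPP minus that in Sham was -2.31 ± 2.29 on the log2 scale, from -4.21 without NPP_herb replicate 2 to -0.83 without NPP_solvent replicate 3.

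What the model did under solvent is addressed by NPP_solvent against Sham_solvent, in which the Reg3b levels of the groups did not overlap. With 3 libraries per group, such separation is not rare even under unrelated labels, and the share of all genes without overlap was not counted. By a different measure, which does not give that share, 0% of all genes passed edgeR's test there. The lowest NPP_solvent library, at 3.78 CPM, lay above the highest Sham_solvent library, at 1.55 CPM, and the log2 fold change was 4.24 ± 1.71. It was 2.76 without NPP_solvent replicate 3. In Sham_solvent against Ctrl_solvent the value was -2.84 ± 1.70, and -1.37 without Ctrl_solvent replicate 3. In Ctrl_solvent against Ctrl it was -3.16 ± 1.51 with all libraries. With a term for whether Eif2s3y was above 1 CPM, which leaves Ctrl replicate 1 as the Ctrl library compared, it was 3.56 ± 2.35, so its direction rested on Ctrl replicates 2 and 3. Comparisons that share a group share its libraries, so these values are not independent of each other.

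**Figure D2:**
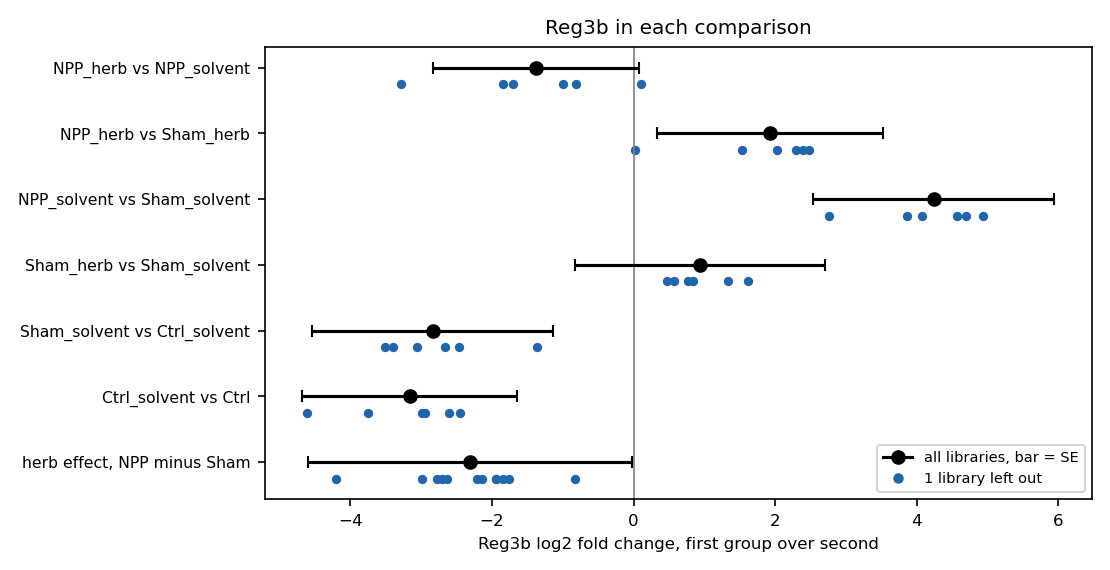
Log2 fold change of Reg3b in each comparison, first group over second, with all libraries (black, bar = SE) and with 1 library of the groups compared left out at a time (blue). The black point for NPP_solvent against Sham_solvent lies at 4.24 and its lowest blue point at 2.76, while those for NPP_herb against NPP_solvent reach from -3.29 to 0.11.

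Across all genes the edgeR quasi-likelihood test called 0 of 17043 genes, 0% in each of the 7 comparisons at an adjusted p of 0.05, and the smallest adjusted p was 0.05001, in Ctrl_solvent against Ctrl. Unadjusted p lay under 0.05 for 319 genes in NPP_herb against NPP_solvent, 238 in NPP_herb against Sham_herb, 967 in NPP_solvent against Sham_solvent, 1686 in Sham_herb against Sham_solvent, 1043 in Sham_solvent against Ctrl_solvent, 2218 in Ctrl_solvent against Ctrl and 580 for the herb effect in NPP minus Sham. DESeq2 called 1, 2, 0, 0, 35, 466 and 3 genes in the same comparisons, and limma on FPKM called 1 gene, in Ctrl_solvent against Ctrl.

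Among the relatives, Reg3a was high where Reg3b was highest. Reg3a encodes another secreted Reg lectin, described in rats as a second pancreatitis-associated protein. It was at 1.07, 2.12 and 0.742 CPM in NPP_herb, at 1.42, 1.08 and 21.9 CPM in NPP_solvent, and at 1.10, 0.873 and 1.34 CPM in Sham_herb. It was at 0.894, 1.02 and 1.32 CPM in Sham_solvent, at 4.06, 0.731 and 3.85 CPM in Ctrl_solvent, and at 0.663, 28.3 and 40.4 CPM in Ctrl. Only Ctrl replicates 2 and 3 and NPP_solvent replicate 3 passed 5 CPM for Reg3a, and its correlation with Reg3b over the 18 libraries was r = 0.91 on log2 CPM (Spearman rho = 0.90). Without Ctrl replicates 2 and 3, the libraries farthest from the median of Reg3b, r was 0.82 (n = 16).

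Reg1a and Reg3g, genes of the same cluster, had few or no reads outside Ctrl replicates 2 and 3 and did not pass the filter on low counts. Reg1a, the founding member of the family in rat pancreas, had 19 and 106 reads in Ctrl replicates 2 and 3, 5 reads in NPP_solvent replicate 3 and 5 in Ctrl_solvent replicate 2, and at most 2 in any other library. Reg3g, whose mouse product binds bacterial cell walls, had 9 and 73 reads in Ctrl replicates 2 and 3 and at most 1 elsewhere. Where a library held no read, 3 reads would correspond to 0.059 to 0.167 CPM, depending on its depth, which covers counting error only. Reg4, on chromosome 2, had 1 read in all 18 libraries. Outside the cluster, the RefSeq neighbours Ctnna2, an adhesion gene at 95.3 to 155 CPM, and LRRTM1, a synaptic adhesion gene at 10.4 to 21.8 CPM, had r of -0.13 and 0.40 with Reg3b. Reads of Reg3b and Reg3a could be split between these similar genes by the authors' counting, which is not described in the sources used here.

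The balance between Reg3b and Reg3a was not the same in all libraries. On the length-scaled FPKM of the deposited table, the ratio of Reg3b to Reg3a was 2.83, 8.79 and 1.45 in NPP_herb, 6.45, 4.13 and 1.97 in NPP_solvent, and 1.95, 0.667 and 2.22 in Sham_herb. It was 0.795, 0.55 and 1.39 in Sham_solvent, 1.18, 1.23 and 4.23 in Ctrl_solvent, and 0.906, 2.79 and 2.83 for the Ctrl libraries. The 4 libraries with a ratio over 4 (NPP_herb replicate 2, NPP_solvent replicates 1 and 2 and Ctrl_solvent replicate 3) had Atf3, the standard marker of injured sensory neurons, at 107, 83.1, 39.4 and 94.6 CPM. Sham_herb replicate 3 and NPP_herb replicate 1 had Atf3 at 54.5 and 50.9 CPM and ratios of 2.22 and 2.83, no higher than the 2.83 of Ctrl replicate 3 at 9.53 CPM of Atf3. Over the 18 libraries the log2 ratio had r = 0.73 with log2 CPM of Atf3 (Spearman rho = 0.50), and r = 0.60 without NPP_herb replicate 2 and Ctrl_solvent replicate 3, the libraries farthest from the median of Atf3 (n = 16). This relation was looked for after the values were seen, and it rests on ratios of few reads in the low libraries, such as 13 Reg3b and 23 Reg3a reads in Sham_herb replicate 2.

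**Figure D3:**
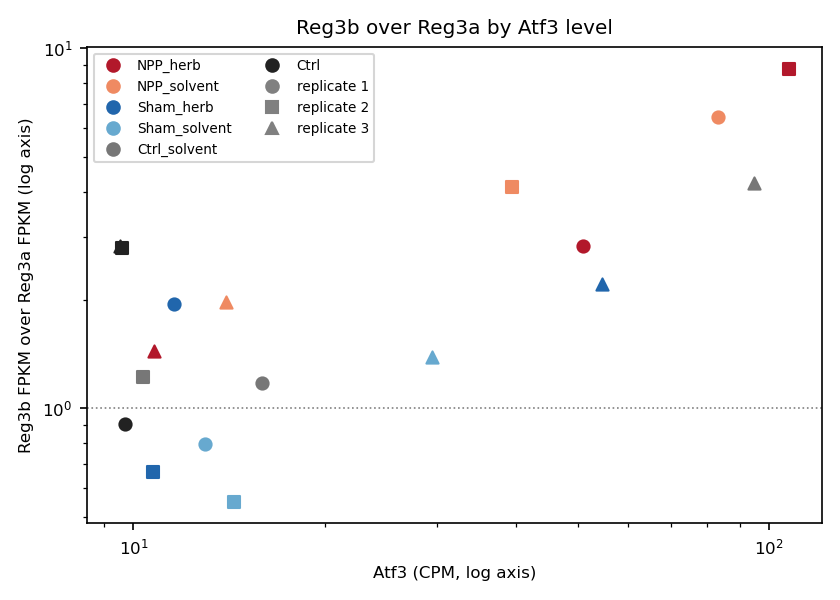
Reg3b FPKM over Reg3a FPKM against Atf3 in CPM, both on log axes, 1 point per library, coloured by group and shaped by replicate number, with a dotted line at a ratio of 1. NPP_herb replicate 2 has the highest ratio, 8.79, and the highest Atf3, while Ctrl replicates 2 and 3 lie near 2.8 at low Atf3.

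Atf3 and Reg3b did not run together over all libraries, which is the pattern the gene was picked for. The 3 libraries with the most Reg3b, Ctrl replicates 3 and 2 and NPP_solvent replicate 3, had Atf3 at 9.53, 9.60 and 14.0 CPM. The next 3, NPP_herb replicate 2, Ctrl_solvent replicate 3 and NPP_solvent replicate 1, had Reg3b at 15.8, 13.8 and 7.78 CPM and Atf3 at 107, 94.6 and 83.1 CPM. High Reg3b thus occurred with low and with high Atf3. The correlation was r = 0.21 over 18 libraries (Spearman rho = 0.20), 0.64 without Ctrl replicates 2 and 3 (n = 16) and 0.60 without the Ctrl group (n = 15).

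By the naming rule, the 15 genes whose log2 CPM was most like Reg3b over the 18 libraries were Vgf, Reg3a, Rhou, Alkal2, Bdnf, Fam210b, Osmr, Ifitm1, Pappa1, Nppb, Slc44a2, Myadm, Ptpn5, Mettl27 and Ddx56, with Pearson r from 0.93 down to 0.78. The 5 least like it were Herpud2, Pard6g, Aqp4, Ino80c and Galm, with r from -0.83 to -0.79. They came from 13229 eligible genes, and the genes just outside were Sez6 (r = 0.77, against 0.78 for Ddx56 inside) and Cyp2d4 (r = -0.79, as for Galm inside). Of all 17042 other genes, 48 had r of at least 0.7 and 32 had r of -0.7 or below, with a median r of 0.00. The genes were chosen for this likeness, so r is given without a p.

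**Figure D4:**
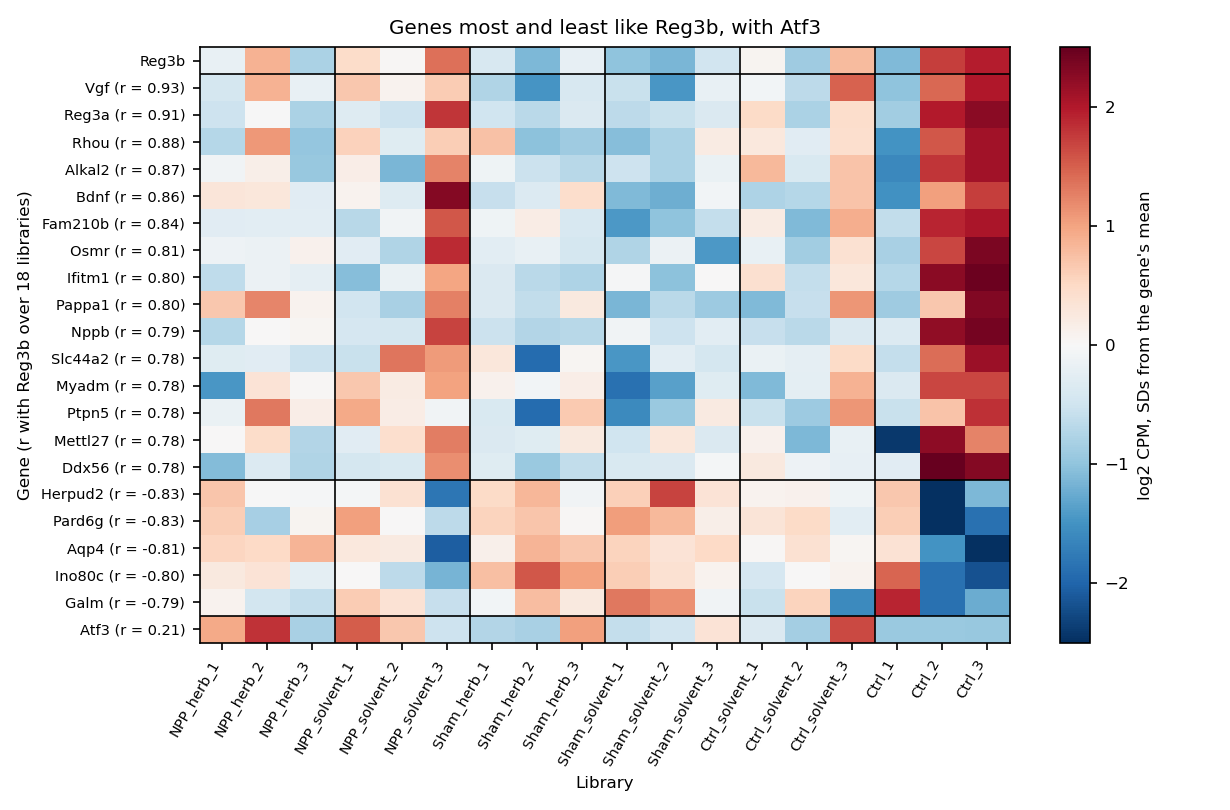
Level of Reg3b, of the 15 genes most like it, of the 5 least like it and of Atf3 in the 18 libraries, by group, as log2 CPM in standard deviations from the mean of the gene. The columns of Ctrl replicates 2 and 3 are red in the upper block and blue in the lower one, NPP_solvent replicate 3 is mostly so too, and the Atf3 row is high in other libraries.

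Vgf had the highest r with Reg3b of the named genes. This neuropeptide precursor of sensory neurons, which nerve growth factor induces, was at 56.2, 96.2 and 62.3 CPM in NPP_herb, at 88.3, 69.8 and 87.4 CPM in NPP_solvent, and at 49.3, 36.5 and 57.2 CPM in Sham_herb. It was at 53.3, 36.9 and 62.0 CPM in Sham_solvent, at 65.3, 51.5 and 123 CPM in Ctrl_solvent, and at 44.4, 121 and 153 CPM in Ctrl. Vgf followed Reg3b in the libraries with much Atf3 and in those with little, with r = 0.93 (Spearman rho = 0.92), 0.89 without Ctrl replicates 2 and 3 (n = 16) and 0.92 for deviations from the group means.

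Bdnf encodes a neurotrophin that nociceptors release, and it is also in the list of nerve injury genes. It was at 23.7, 23.5 and 19.6 CPM in NPP_herb, at 22.0, 19.4 and 45.1 CPM in NPP_solvent, and at 17.8, 19.2 and 24.8 CPM in Sham_herb. It was at 14.996, 14.4 and 20.97 CPM in Sham_solvent, at 16.7, 17.02 and 27.1 CPM in Ctrl_solvent, and at 13.1, 29.9 and 37.5 CPM in Ctrl. NPP_solvent replicate 3 was highest, followed by Ctrl replicates 3 and 2, and r was 0.86 (0.82 without Ctrl replicates 2 and 3). Alkal2, a ligand of the receptor kinases ALK and LTK, was at 7.15 CPM in NPP_solvent replicate 3, at 12.1 and 16.8 CPM in Ctrl replicates 2 and 3, and at 0.368 to 4.65 CPM elsewhere (r = 0.87, and 0.76 without those Ctrl libraries).

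Nppb and Osmr were highest in the same 3 libraries. Nppb, the B-type natriuretic peptide that itch neurons use, was at 22.2 CPM in NPP_solvent replicate 3, at 47.1 and 59.8 CPM in Ctrl replicates 2 and 3, and at 0.683 to 2.17 CPM in the other 15 libraries. Its r was 0.79 with a Spearman rho of 0.50, and 0.55 without Ctrl replicates 2 and 3, a value that still includes NPP_solvent replicate 3. Osmr, the receptor subunit through which oncostatin M acts with gp130, was at 64.4 CPM in NPP_solvent replicate 3, at 57.5 and 87.0 CPM in Ctrl replicates 2 and 3, and at 8.21 to 25.6 CPM in the other 15. Its r was 0.81, and 0.62 without those Ctrl libraries. The 3 libraries lay above the other 15 in both genes, by a wider margin for Nppb than for Osmr.

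**Figure D5:**
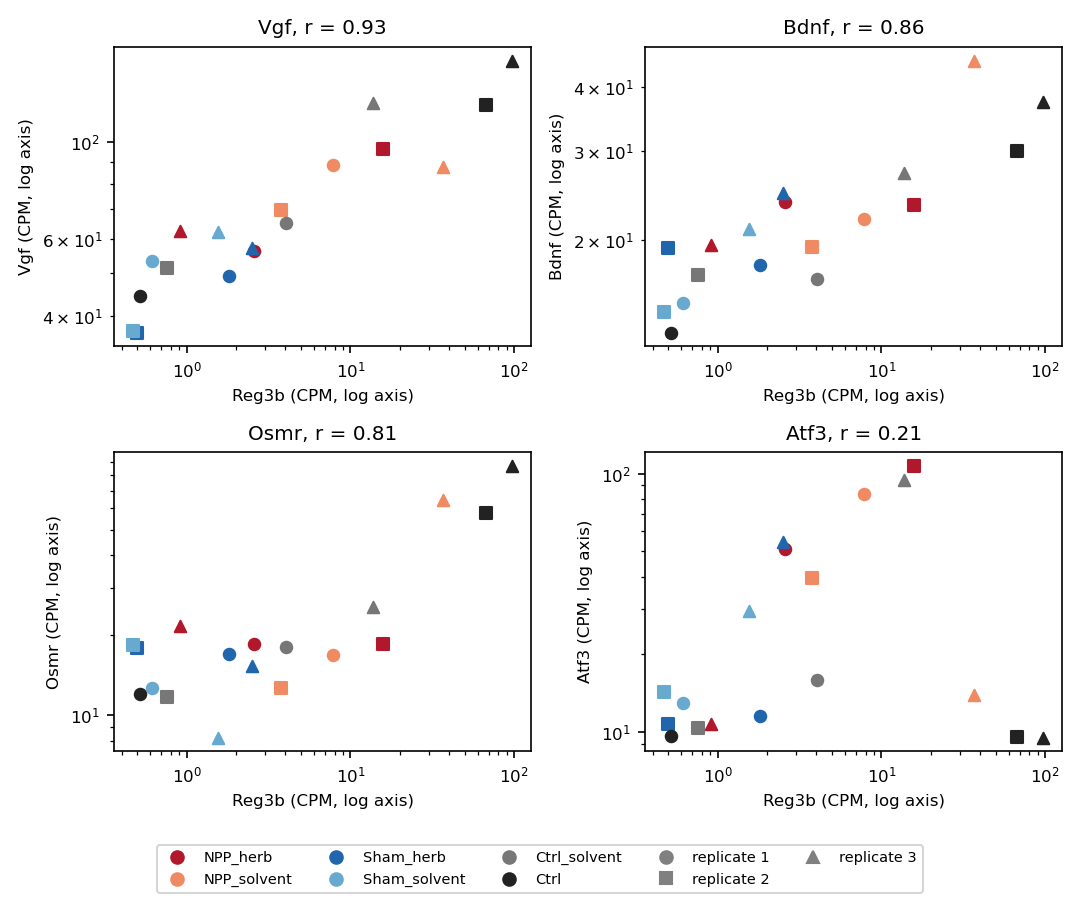
Vgf, Bdnf, Osmr and Atf3 against Reg3b, all in CPM on log axes, 1 point per library, coloured by group and shaped by replicate number, with Pearson r on log2 CPM in each title. Vgf climbs over the whole range of Reg3b, Osmr is high in the 3 libraries with most Reg3b, and Atf3 is high in libraries of middling Reg3b and low in the 3 highest.

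The other similar genes were of several kinds. Rhou ran over a narrow range from 33.1 CPM in Ctrl replicate 1 to 58.2 CPM in Ctrl replicate 3 (r = 0.88). Ifitm1, an interferon-inducible membrane protein gene, was at 48.4 CPM in NPP_solvent replicate 3, at 91.8 and 101 CPM in Ctrl replicates 2 and 3, and at 17.4 to 36.1 CPM elsewhere. Pappa1, a secreted metalloproteinase that cleaves binding proteins of insulin-like growth factors, ran from 5.36 to 18.2 CPM, with Ctrl replicate 3 highest (r = 0.80). Fam210b, a mitochondrial protein gene, reached 33.4 CPM in NPP_solvent replicate 3 and 36.6 and 38.0 CPM in Ctrl replicates 2 and 3, against 15.1 to 28.1 CPM in the others.

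Ptpn5, a brain-enriched tyrosine phosphatase gene, ran from 4.82 to 13.9 CPM and was at 8.10 CPM in NPP_solvent replicate 3, below NPP_herb replicate 2 at 12.0 CPM. Slc44a2, a choline transporter-like gene, ran from 140 to 187 CPM, Myadm, a membrane protein gene, from 79.4 to 116 CPM, Mettl27 from 0.958 to 4.03 CPM and Ddx56, a nucleolar RNA helicase gene, from 11.9 to 33.3 CPM. The highest library was Ctrl replicate 3 for Slc44a2 and Ctrl replicate 2 for Mettl27 and Ddx56, and for Myadm both were at 116 CPM.

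Aqp4, the water channel of glia, ran opposite to Reg3b. It was at 9.46, 9.20 and 13.3 CPM in NPP_herb, at 7.18, 6.87 and 0.598 CPM in NPP_solvent, and at 6.19, 13.1 and 10.9 CPM in Sham_herb. It was at 9.75, 7.74 and 9.19 CPM in Sham_solvent, at 5.63, 8.17 and 5.73 CPM in Ctrl_solvent, and at 7.92, 1.12 and 0.294 CPM in Ctrl. The 3 libraries with the most Reg3b were the 3 lowest for Aqp4, and r was -0.81 (-0.65 without Ctrl replicates 2 and 3). Pard6g, a cell polarity gene, was at 18.5 CPM in NPP_solvent replicate 3 and at 13.1 and 15.2 CPM in Ctrl replicates 2 and 3, against 17.95 to 24.3 CPM elsewhere. Herpud2, an endoplasmic reticulum protein gene, was at 26.0 CPM in NPP_solvent replicate 3 and at 24.3 and 27.4 CPM in those Ctrl libraries, against 29.6 to 33.9 CPM elsewhere. Ino80c, a chromatin remodelling gene, and Galm, a sugar-converting enzyme gene, spanned 48.2 to 66.1 CPM and 12.2 to 18.7 CPM.

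Osmr was the exception among the ligands and receptors of the gp130 pathway, which is known to switch on Reg3b. Of 13 measured ligands and receptors of the gp130 family that passed the filter on low counts, 3 had a positive r with Reg3b, with a median of -0.16. Osmr was the highest, and Cntf, a neurotrophic cytokine of Schwann cells, the lowest at r = -0.55. Il6, which did not pass the filter, had 0 to 15 reads per library and most in Ctrl_solvent replicate 3. Lif, the ligand tied to Reg3b in injured rat nerve, was at most 0.836 CPM (r = -0.02), and Osm, the ligand of Osmr, had r = -0.14. Without Ctrl replicates 2 and 3, r was 0.54 for Lif and 0.34 for Osm (n = 16).

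Of 13 genes in the list of Stat3 and its targets, called Stat3 genes below, 12 had a positive r, with a median of 0.23. The list also holds the kinases Jak1, Jak2 and Tyk2, which are not targets, with r of 0.20, 0.09 and 0.29. Socs3, the feedback inhibitor that Stat3 induces, was highest with r = 0.65 and a Spearman rho of 0.83. It was at 7.04, 16.4 and 4.79 CPM in NPP_herb, at 11.9, 7.56 and 10.1 CPM in NPP_solvent, and at 5.90, 5.50 and 6.34 CPM in Sham_herb. It was at 5.77, 5.54 and 7.13 CPM in Sham_solvent, at 14.9, 7.41 and 31.8 CPM in Ctrl_solvent, and at 5.05, 9.31 and 10.5 CPM in Ctrl. The 3 libraries with most Reg3b, at 9.31 to 10.5 CPM, lay above the Socs3 median of 7.27 CPM, and Ctrl_solvent replicate 3 was highest. Stat3 itself had r = 0.44, and Bcl3, a coactivator of NF-kB and Stat3 target, r = 0.58. The list for interleukin-22 and interleukin-17 signalling also holds the cytokine genes Il1b and Tnf. Its 5 genes that passed the filter had a median r of 0.27. They were Il10rb (r = 0.50), Il17ra (0.18), Il17rc (0.18), Il1b (0.27) and Tnf (0.27). Il22 had 1 read in all 18 libraries, and Extl3, a candidate Reg receptor, kept to 39.4 to 64.6 CPM with r = 0.07.

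Nerve injury genes other than Reg3b were followed as a list of 25, of which 24 had a positive r. Their median r was 0.20, against -0.001 over all other genes tested. The list holds Atf3, and Reg3b was picked for not following Atf3, so these r values are not independent of that choice. It also holds Bdnf, which was named for its likeness to Reg3b. Gal, a neuropeptide that injured neurons make, had r = 0.16, Npy, another such peptide, 0.15, and Adcyap1, the gene of the peptide PACAP, 0.45. These values were 0.49, 0.58 and 0.79 without Ctrl replicates 2 and 3 (n = 16). Npy was at 1.41 and 0.62 CPM in those libraries and at 3.18 CPM in NPP_solvent replicate 3, against 173 CPM in NPP_herb replicate 2 and 196 CPM in Ctrl_solvent replicate 3.

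In the comparisons between groups, 0 of the 54 measured genes of these 5 lists passed edgeR's test in any comparison, against 0% of all genes. Unadjusted p lay under 0.05 for 1 of the 54 in NPP_herb against NPP_solvent (319 of all 17043 genes), 2 in NPP_herb against Sham_herb (238 of all), 5 in NPP_solvent against Sham_solvent (967 of all) and 5 in Sham_herb against Sham_solvent (1686 of all). The count was 12 of the 54 in Sham_solvent against Ctrl_solvent (1043 of all 17043), 12 in Ctrl_solvent against Ctrl (2218 of all) and 2 for the herb effect in NPP minus Sham (580 of all). DESeq2 called A2m, Npy and Csf1 in Ctrl_solvent against Ctrl and 0 of the 54 elsewhere. In NPP_solvent against Sham_solvent, where Reg3b was higher, 22 of 24 nerve injury genes and 8 of 13 Stat3 genes were higher, with median log2 fold changes of 0.57 and 0.13 against 0.01 over all genes. In Sham_solvent against Ctrl_solvent, where Reg3b was lower, 22 of 24 nerve injury genes and 13 of 13 Stat3 genes were lower, with medians of -0.36 and -0.34 against -0.01 over all genes. In Ctrl_solvent against Ctrl, where Reg3b was also lower, 22 of 24 nerve injury genes and 9 of 13 Stat3 genes were higher, with medians of 0.59 and 0.32 against 0.01 over all genes. In NPP_herb against NPP_solvent, 18 of 24 nerve injury genes and 6 of 13 Stat3 genes were higher, with medians of 0.15 and -0.02 against -0.01. The direction of the lists was therefore not that of Reg3b in every comparison. Genes of a list may vary together, so they are not separate observations. In Ctrl_solvent replicates 1, 2 and 3, Atf3 was at 15.9, 10.4 and 94.6 CPM and Npy at 1.89, 1.79 and 196 CPM. The direction of Reg3b in Ctrl_solvent against Ctrl rested on Ctrl replicates 2 and 3. How far single libraries set the directions of the lists was not tested. Osmr and Bdnf are left out of these counts because they were named for their likeness to Reg3b.

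Cell markers summed as lists did not run with Reg3b. The level summed over the list had r with Reg3b of -0.05 for neutrophils, -0.06 for macrophages, 0.04 for T cells, 0.03 for fibroblasts, -0.02 for myelinating Schwann cells, -0.38 for satellite glia and 0.07 for sensory neurons. Abundant genes weigh most in such sums. Median levels were 8124 CPM for Nefh and 13610 CPM for the sensory neuron sum, and 19.4 and 19.8 CPM for Cd4 and the T cell sum. Gene by gene, 8 of 10 sensory neuron markers had a positive r, from -0.27 (Isl1) to 0.63 (Calca), with a median of 0.14. Of 7 macrophage markers 4 did, from -0.65 (Cd163) to 0.34 (Adgre1), with a median of 0.04. The neutrophil sum was 365 CPM in Ctrl replicate 2 but 43.6 CPM in Ctrl replicate 3 and 47.9 CPM in NPP_solvent replicate 3, within the 31.3 to 156 CPM of the other 15 libraries. The fibroblast sum was highest in NPP_solvent replicate 3, at 2411 CPM, and lowest in Ctrl replicate 3, at 851 CPM. Satellite glia markers summed to 902 and 905 CPM in Ctrl replicates 2 and 3, the lowest values, and to 1145 CPM in NPP_solvent replicate 3. In bulk tissue, fewer cells of a type and less RNA per cell cannot be told apart. The Y-linked Eif2s3y, at 0.0485 and 0 CPM in Ctrl replicates 2 and 3, was at 124 CPM in NPP_solvent replicate 3, and its part in the level of Reg3b was not tested. Total reads, the mitochondrial share and the share of ribosomal Rn45s had r of -0.33, -0.10 and 0.17 with Reg3b.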

How the data were processed

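The 18 libraries hold messenger RNA from rat dorsal root ganglia. Per the labels' protocols, RNA was extracted with TRIZOL, captured on beads and made into stranded libraries read as pairs on a NovaSeq. Per the submitters' processing notes, HISAT2, DESeq2 and the build mRatBN7.2 were used; for the counting program, strandedness and gene models, nothing is stated in the labels or headers. The deposited counts are raw reads per gene for 25678 genes, not normalized by the authors. The FPKM deposited by the authors scale reads to gene length and library size for 25557 genes.

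The filterByExpr function of edgeR 4.0.16 (R 4.3.3) kept 17043 genes, and the other 8635 took up to 0.0495% of a library's reads. Counts were scaled by TMM factors (0.946 to 1.04) and fitted with the robust quasi-likelihood model in all 18 libraries, 1 coefficient per group and 12 residual degrees of freedom, with Benjamini-Hochberg adjustment over all genes at 0.05. The fit was checked on simulated counts drawn from the spread it had itself estimated. That checks the computation and not how the fit handles libraries that stand apart. Likeness is Pearson r on log2 CPM (prior count 2), and the naming rule took the 15 highest and 5 lowest r among genes with a mean of at least 1 CPM and no placeholder symbol. DESeq2 1.42.0 and limma 3.58.1 on log2(FPKM + 0.1), for genes with a mean FPKM of at least 0.1, were alternatives. Promoter windows came from RefSeq tables on GRCr8. The gene, the lists and the tests were chosen with earlier results of these data known. Since separate animals are not stated, any p-value reflects the spread among these libraries alone, and that spread may be technical. The replicates closest in counts had a chi-square of 12.8 per degree of freedom, so none was taken as a repeat of another.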

Additional observations from a re-analysis of the deposited data

How the results depend on the processing

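The count of 0 genes in edgeR moved under some settings. In Ctrl_solvent against Ctrl it was 1 without the filter on low counts, 1 with limma on FPKM and 466 with DESeq2. DESeq2 called 1 gene in NPP_herb against NPP_solvent, 2 in NPP_herb against Sham_herb, 35 in Sham_solvent against Ctrl_solvent and 3 for the herb effect in NPP minus Sham. A term for Eif2s3y above 1 CPM, chosen after seeing the data, gave 1 in NPP_herb against Sham_herb and a Reg3b log2 fold change of 3.56 in Ctrl_solvent against Ctrl. The planned term, Y-linked genes summed above 1 CPM, could not be fitted because all 18 libraries passed it (lowest sum 1.55 CPM, largely Ddx3y, which the table places on chromosome 13). Leaving out 1 library gave 0 to 734 calls in Ctrl_solvent against Ctrl (734 without Ctrl_solvent replicate 2, 23 without Ctrl replicate 1, 2 without Ctrl replicate 2), 0 to 252 in Sham_solvent against Ctrl_solvent (252 without Ctrl_solvent replicate 2), 0 to 2 in NPP_herb against Sham_herb (2 without NPP_herb replicate 2) and 0 to 1 for the herb effect in NPP minus Sham (1 without NPP_solvent replicate 1). The cause was not tested.

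Leaving out 1 library at a time put the mean of Reg3b at 1.75 to 9.18 CPM in NPP_herb, 5.78 to 22.2 CPM in NPP_solvent, 1.16 to 2.17 CPM in Sham_herb, 0.541 to 1.08 CPM in Sham_solvent, 2.41 to 8.94 CPM in Ctrl_solvent and 33.8 to 82.1 CPM in Ctrl, and its log2 fold change at -3.29 to 0.11 in NPP_herb against NPP_solvent and -4.62 to -2.46 in Ctrl_solvent against Ctrl. A replicate block gave 0 calls in each comparison and a Reg3b log2 fold change of 4.05 in NPP_solvent against Sham_solvent. Same-numbered libraries shared no more than others (median r of deviations 0.01 over 45 pairs, and 4 of 18 libraries best matched by their own number), so the numbers are not taken as pairs. Under the 6 other measures of likeness all 20 named genes kept the sign of r, with sizes from 0.50 to 0.93. The genes were chosen for a large r in these same libraries, so a kept sign is no test of the likeness. Each setting that left out libraries kept NPP_solvent replicate 3, so likeness without all 3 of the libraries highest in Reg3b was not measured. Outside Ctrl replicates 2 and 3, Reg1a had at most 5 reads and Reg3g at most 1, so depth limits their levels there.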
